A study of Mus musculus with 15 samples.

Results

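The plasma cell genes described here are 10 mouse genes that B cells use when they turn into antibody-secreting cells. They are the regulators Prdm1, Xbp1 and Irf4, the surface proteins Sdc1, Tnfrsf17 and Tnfrsf13b, the antibody assembly factors Jchain and Mzb1, and Creld2 and Hspa5 of the endoplasmic reticulum (ER). They were chosen by name and not by a cut on their values, but with earlier results of these data known. All 10 were found among the 37583 gene rows by their Ensembl identifiers. The study sequenced RNA of B cells from mouse lymphomas transduced with an empty vector (EV, 4 libraries) or with an shRNA, a hairpin that silences a chosen mRNA, directed at Kmt2d (sh-Kmt2d, 5 libraries), and so asks what less of this histone H3 lysine 4 methyltransferase does to transcription in the tumour. The cells of both groups came from the mouse without culture and were enriched on magnetic beads for B220 (CD45R). The sources used here do not give the strain, the age of the mice, the driver of the lymphoma, the hairpin's sequence or the number of mice. Replicate numbers are names given in sample order. Whether the libraries stem from separate mice is not stated, so the p-values cover the spread of these samples alone, which may be technical.

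As background, a B cell that becomes a plasma cell switches on Prdm1 (Blimp-1), which represses the B cell programme, and Irf4, whose dose sets whether a cell takes the germinal centre or the plasma cell path. Xbp1 then enlarges the secretory pathway: its mRNA is spliced by the ER stress sensor IRE1, and the spliced form encodes a factor that activates genes for protein folding, transport and degradation. Loss of PRDM1 and blocked plasma cell differentiation are known features of human B cell lymphoma. Normal plasma cells carry little B220, so that B220 beads tend to leave them behind.

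Counts on genes ran from 5925745 to 29284830 per library, lowest in sh-Kmt2d replicate 5. The rows of the 10 genes held 22 to 142379 counts per library, with the fewest for Tnfrsf17. Kmt2d, the target of the hairpin, had 498, 252, 492 and 94.4 CPM (counts scaled to a common library size by TMM) in EV replicates 1 to 4 and 57.4, 46.8, 204, 18.9 and 9.78 CPM in sh-Kmt2d replicates 1 to 5. The groups overlapped, and the test over all genes did not call Kmt2d (log2 fold change -2.31 ± 0.84, SE, edgeR adjusted p = 0.167). Markers of the labelled cell type were present in every library. Cd79b and Cd79a, the signalling chains of the B cell receptor, ranged from 1633 to 2242 and from 990 to 1398 CPM for EV, and from 2499 to 19940 and from 1148 to 9771 CPM for sh-Kmt2d, highest in replicate 5. Cd79b did not overlap between the groups (log2 fold change 1.87 ± 0.63, SE, edgeR adjusted p = 0.167, DESeq2 adjusted p = 0.0425), and stood at 0.99 ± 0.24 without sh-Kmt2d replicate 5 and 0.03 ± 0.21 with the index described next as a covariate. Ptprc, whose protein CD45 carries the B220 epitope used for enrichment, had the other sign, at 1476 to 1841 CPM for EV and 106 to 1528 CPM for sh-Kmt2d (-0.79 ± 0.60, edgeR adjusted p = 0.347), lowest in replicate 5, and -0.50 ± 0.24 without that library. Ms4a1 (CD20) ranged from 1693 to 2229 and from 1348 to 3134 CPM, and the B cell factor Pax5 from 166 to 274 and from 166 to 275 CPM. The part of these markers in the members' values was not tested. One library stands apart. In sh-Kmt2d replicate 5, 73.68% of alignments were not unique, against 36.48% to 57.23% in the others, and 82.3% of the 13349 tested genes had their highest or lowest value of all 9 libraries there. A long-minus-short index of transcript length, the median log2 CPM of 25 genes with very long transcripts minus that of 25 genes with short ones, had values of 2.91, 2.36, 3.15 and 0.97 for EV replicates 1 to 4, and of 0.04, -0.28, 1.75, -2.11 and -5.74 for sh-Kmt2d replicates 1 to 5. Only sh-Kmt2d replicate 3 lay within the EV range of this index, so that index and hairpin can be told apart only in part. A fit that holds the index as a covariate is called index-adjusted, and its values are not corrected effects of the hairpin. In that fit Kmt2d itself stood at -0.54 ± 0.44 (edgeR unadjusted p = 0.242), and without sh-Kmt2d replicate 5 at -2.03 ± 0.75. Values that this library moved most are also given without it. The first number of the library titles (78 and 87 in EV, 103 and 110 in sh-Kmt2d) is in no case shared by both groups, so that title number and hairpin cannot be told apart.

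None of the 10 plasma cell genes was called in the test over all genes. The edgeR quasi-likelihood test called 0 of 10 higher and 0 of 10 lower in sh-Kmt2d, as it did 0% of all tested genes in each direction. At an unadjusted p under 0.05, Xbp1, Mzb1 and Creld2 were higher (3 of 10, against 17.3% of all genes) and 0 of 10 were lower (against 11.1%). The 3 became 0 without EV replicate 2 and 0 without EV replicate 3, and 2 without sh-Kmt2d replicate 4. The log2 fold changes of the 10 ran from -0.90 to 2.06 with a median of 0.22, while the median of all tested genes was -0.04. Of the 10, 6 had a positive value, against 48.1% of all genes. DESeq2 called 0 of the 9 members for which it gave an adjusted p, against 1.83% of its genes higher and 3.22% lower, and it gave none for Mzb1. Limma voom weighted by library quality called Xbp1, Mzb1 and Creld2 higher and Irf4 lower, where it called 29.8% of all genes higher and 30.3% lower. Those weights ran from 0.0514 in sh-Kmt2d replicate 5 to 7.63 in sh-Kmt2d replicate 1.

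**Figure D1:**
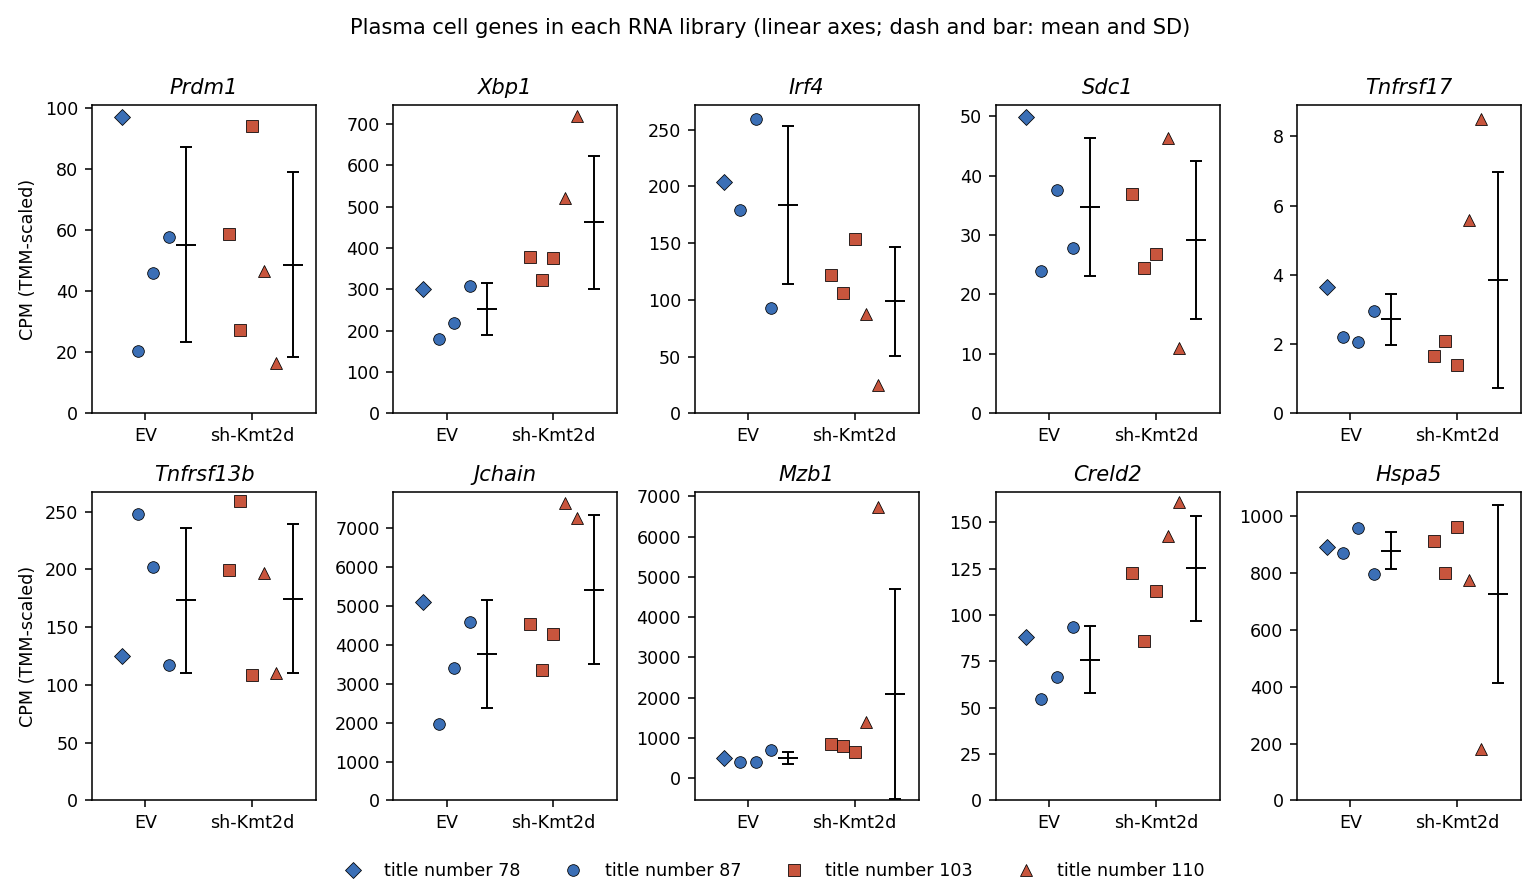
CPM of each plasma cell gene (vertical axis, linear, own scale per gene) in the 4 EV (blue) and 5 sh-Kmt2d (red) libraries, with the marker shape giving the first title number and the dash and bar the mean and SD. Xbp1 alone has all sh-Kmt2d libraries above all EV libraries, and the triangle at 6734 CPM of Mzb1 and the one at 182 CPM of Hspa5 are sh-Kmt2d replicate 5.

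The 3 regulators did not move together. Prdm1 (ENSMUSG00000038151) stood at 96.7, 20.4, 45.9 and 57.6 CPM in the EV libraries and at 58.7, 27.2, 94.0, 46.5 and 16.4 CPM in the sh-Kmt2d libraries. High and low libraries occurred in both groups: EV replicate 1 and sh-Kmt2d replicate 3 were the highest, and EV replicate 2 and sh-Kmt2d replicate 5 the lowest. The means were 55.2 ± 31.8 CPM for EV (SD, n = 4) and 48.6 ± 30.3 CPM for sh-Kmt2d (SD, n = 5). The log2 fold change of Prdm1 was -0.18 ± 0.55 (SE, edgeR adjusted p = 0.818) and 0.03 ± 0.48 without sh-Kmt2d replicate 5. Its 9 libraries spanned 5.9-fold, so that libraries of one group differed more than the group means.

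Xbp1 (ENSMUSG00000020484) stood at 301, 180, 220 and 307 CPM in EV and at 377, 322, 376, 520 and 719 CPM in sh-Kmt2d. Every sh-Kmt2d library lay above every EV library, which was the case for 1 of the 10 members and for 5.72% of all tested genes. The reverse held for 0 of 10 members and 5.12% of genes, and groups without overlap in either direction for 1 of 10 and 10.8%. The order within sh-Kmt2d followed the title number, with 322 to 377 CPM in the 3 libraries of title number 103 and 520 and 719 CPM in the 2 of title number 110. The means were 252 ± 62.3 CPM for EV (SD, n = 4) and 463 ± 161 CPM for sh-Kmt2d (SD, n = 5), and the log2 fold change came to 0.88 ± 0.32 (SE, edgeR unadjusted p = 0.0216, adjusted p = 0.167). Without sh-Kmt2d replicate 5 the groups still did not overlap (6.79% of genes then lay above, 5.68% below and 12.5% either way), and the log2 fold change was 0.66 ± 0.22 (edgeR adjusted p = 0.0974). In the index-adjusted fit it was 0.31 ± 0.24 (edgeR adjusted p = 0.597). The counts are per gene, so that spliced and unspliced Xbp1 mRNA were not measured apart.

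Irf4 (ENSMUSG00000021356) had values in the opposite direction. It stood at 204, 179, 260 and 92.6 CPM in EV and at 122, 106, 153, 87.6 and 24.6 CPM in sh-Kmt2d. All but EV replicate 4 of the EV libraries lay above all sh-Kmt2d libraries, and EV replicate 4 lay below all but sh-Kmt2d replicates 4 and 5. The means were 184 ± 69.6 CPM for EV (SD, n = 4) and 98.7 ± 47.9 CPM for sh-Kmt2d (SD, n = 5), and the log2 fold change came to -0.90 ± 0.48 (SE, edgeR adjusted p = 0.22). It was -0.65 ± 0.30 without sh-Kmt2d replicate 5, and, adjusted for the index, the sign turned to 0.33 ± 0.25 (edgeR adjusted p = 0.585).

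The surface proteins showed spread between libraries and little between groups. Sdc1 (ENSMUSG00000020592) encodes syndecan-1 (CD138), the proteoglycan by which plasma cells are usually sorted. It stood at 49.9, 23.9, 37.5 and 27.7 CPM in EV and at 36.9, 24.5, 26.9, 46.4 and 11.04 CPM in sh-Kmt2d. The groups overlapped over most of their range, with sh-Kmt2d replicate 5 alone below all EV libraries, and the log2 fold change was -0.25 ± 0.39 (SE, edgeR adjusted p = 0.65). It was -0.05 ± 0.28 without sh-Kmt2d replicate 5 and -0.03 ± 0.43 without EV replicate 1.

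Tnfrsf17 (ENSMUSG00000022496) encodes BCMA, a receptor for APRIL that keeps plasma cells alive. It was a low gene throughout, at 3.65, 2.20, 2.05 and 2.94 CPM in EV and 1.66, 2.10, 1.39, 5.58 and 8.51 CPM in sh-Kmt2d, resting on 22 to 83 counts per library. The 3 libraries of title number 103 were below the EV mean, and the 2 of title number 110 were above all EV libraries. A mean of 3.85 ± 3.11 CPM (SD, n = 5) in sh-Kmt2d thus hides 2 sets of libraries on either side of the EV mean of 2.71 ± 0.738 CPM (SD, n = 4). With all libraries the log2 fold change was 0.42 ± 0.56 (SE, edgeR adjusted p = 0.59). It fell to -0.04 ± 0.45 when sh-Kmt2d replicate 5 was dropped. Dropping both libraries of title number 110 gave -0.64 ± 0.30 (edgeR adjusted p = 0.214). The sign also turned in 2 fits that left out neither, of which the second gave both little weight. The index-adjusted value was -1.14 ± 0.43 (edgeR unadjusted p = 0.0256, adjusted p = 0.546), and limma with quality weights gave -0.39 ± 0.24. The weights there were 0.476 for sh-Kmt2d replicate 4 and 0.0514 for replicate 5, against 7.63 for replicate 1. In all, the sign turned in 5 of 22 alternatives and held in 17, and what sets it was not tested.

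Tnfrsf13b (ENSMUSG00000010142) encodes TACI, a receptor for BAFF and APRIL on mature B cells and plasma cells. It stood at 125, 248, 202 and 117 CPM in EV and at 199, 259, 109, 197 and 110 CPM in sh-Kmt2d. Both groups held high and low libraries over nearly the same range, and the log2 fold change was 0.01 ± 0.36 (SE, edgeR adjusted p = 0.98). A change of the size of that error could not have been seen here. Tnfrsf13b was the gene of the 10 with the narrowest range over all 9 libraries, 2.38-fold.

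Of the 2 antibody assembly factors, Jchain (ENSMUSG00000067149) encodes the joining chain that links IgM and IgA into polymers. It stood at 5099, 1974, 3403 and 4583 CPM in EV and at 4540, 3344, 4279, 7626 and 7263 CPM in sh-Kmt2d. The 2 libraries of title number 110 were above all others, and the 3 of title number 103 lay within the EV range. The means were 3765 ± 1389 CPM for EV (SD, n = 4) and 5410 ± 1913 CPM for sh-Kmt2d (SD, n = 5), and the log2 fold change was 0.52 ± 0.39 (SE, edgeR adjusted p = 0.347). Without sh-Kmt2d replicates 4 and 5 it was 0.12 ± 0.31.

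Mzb1 (ENSMUSG00000024353) encodes an ER protein of marginal zone B cells, B-1 cells and plasma cells that helps to assemble and secrete IgM. It stood at 490, 396, 408 and 702 CPM in EV and at 855, 801, 637, 1386 and 6734 CPM in sh-Kmt2d. All sh-Kmt2d libraries but replicate 3 lay above all EV libraries, and replicate 5 lay far above the rest. The log2 fold change was 2.06 ± 0.76 (SE, edgeR unadjusted p = 0.022, adjusted p = 0.167), the largest of the 10. Without sh-Kmt2d replicate 5 it was 0.88 ± 0.28 (edgeR adjusted p = 0.0969), and the sh-Kmt2d mean went from 2083 ± 2615 CPM (SD, n = 5) to 920 ± 324 CPM (SD, n = 4), beside 499 ± 142 CPM (SD, n = 4) in EV. In the index-adjusted fit the value was -0.20 ± 0.25 (edgeR adjusted p = 0.728).

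Creld2 and Hspa5 are both induced when unfolded proteins build up in the ER, Creld2 encoding a disulfide isomerase-like protein and Hspa5 the chaperone BiP that holds unfinished immunoglobulin heavy chains. Genes of this response often carry an ER stress response element (ERSE), read by ATF6 with NF-Y. The promoters are shown because these 2 genes share the element and yet had different values in the fit with all 9 libraries. RefSeq windows of build GRCm38.p6, from 250 bases before to 50 bases after the start of transcription, were searched for 9 of the 10 members. Mzb1 was not searched, so whether it carries the element is not known here. The ERSE, searched on both strands as CCAAT, any 9 bases and CCACG, was in the windows of Creld2 and Hspa5 and of no other of the 9, and in 0.119% of all 32851 windows. The related ERSE-II (ATTGG, any 1 base and CCACG, 0.0365% of windows) and UPRE (TGACGTGG, 0.676%), also on both strands, were in none of the 9. ERSE-II shares both parts of the ERSE, its ATTGG being CCAAT on the other strand, and the UPRE read on the other strand holds CCACG. The 250 bases before the start are given 5′ to 3′ on the plus strand, with the ERSE in capitals. The element of Creld2 lies on the other strand, 126 to 108 bases before the start, and that of Hspa5 on the gene's strand, 65 to 47 bases before the start.
Creld2, chr15:88819396-88819645: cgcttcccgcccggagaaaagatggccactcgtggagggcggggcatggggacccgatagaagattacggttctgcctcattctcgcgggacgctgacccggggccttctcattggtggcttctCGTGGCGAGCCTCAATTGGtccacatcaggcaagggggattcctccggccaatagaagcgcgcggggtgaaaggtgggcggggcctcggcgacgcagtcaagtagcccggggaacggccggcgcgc
Hspa5, chr2:34771840-34772089: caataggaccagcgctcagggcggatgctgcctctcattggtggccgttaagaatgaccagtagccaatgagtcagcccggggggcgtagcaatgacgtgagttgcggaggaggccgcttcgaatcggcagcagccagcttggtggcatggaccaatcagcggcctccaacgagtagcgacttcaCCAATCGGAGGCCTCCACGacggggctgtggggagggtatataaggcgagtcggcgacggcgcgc

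Creld2 (ENSMUSG00000023272) stood at 88.0, 54.9, 66.8 and 93.7 CPM in EV and at 123, 86.0, 113, 143 and 161 CPM in sh-Kmt2d. Only sh-Kmt2d replicate 2 fell within the EV range, and the 2 libraries of title number 110 were the highest. The means were 75.8 ± 18.1 CPM for EV (SD, n = 4) and 125 ± 28.5 CPM for sh-Kmt2d (SD, n = 5), and the log2 fold change came to 0.72 ± 0.27 (SE, edgeR unadjusted p = 0.0242, adjusted p = 0.167). Without sh-Kmt2d replicate 5 it was 0.61 ± 0.22 (edgeR adjusted p = 0.1), and, adjusted for the index, 0.39 ± 0.24 (edgeR adjusted p = 0.546). Creld2 and Xbp1 were thus the members whose value stayed positive and moved least among the 3 with an unadjusted p under 0.05.

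Hspa5 (ENSMUSG00000026864) was level in all libraries but one. It stood at 890, 870, 955 and 794 CPM in EV and at 912, 798, 961, 772 and 182 CPM in sh-Kmt2d. The 8 libraries other than sh-Kmt2d replicate 5 spanned 1.24-fold, the narrowest range of the 10 genes among those 8, and with replicate 5 the span was 5.27-fold. The log2 fold change was -0.27 ± 0.43 (SE, edgeR adjusted p = 0.643) with all libraries and -0.03 ± 0.14 without sh-Kmt2d replicate 5, where Creld2 had 0.61 ± 0.22. Index-adjusted, Hspa5 had 0.64 ± 0.29 (edgeR adjusted p = 0.546). The difference between the 2 genes was not tested.

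**Figure D2:**
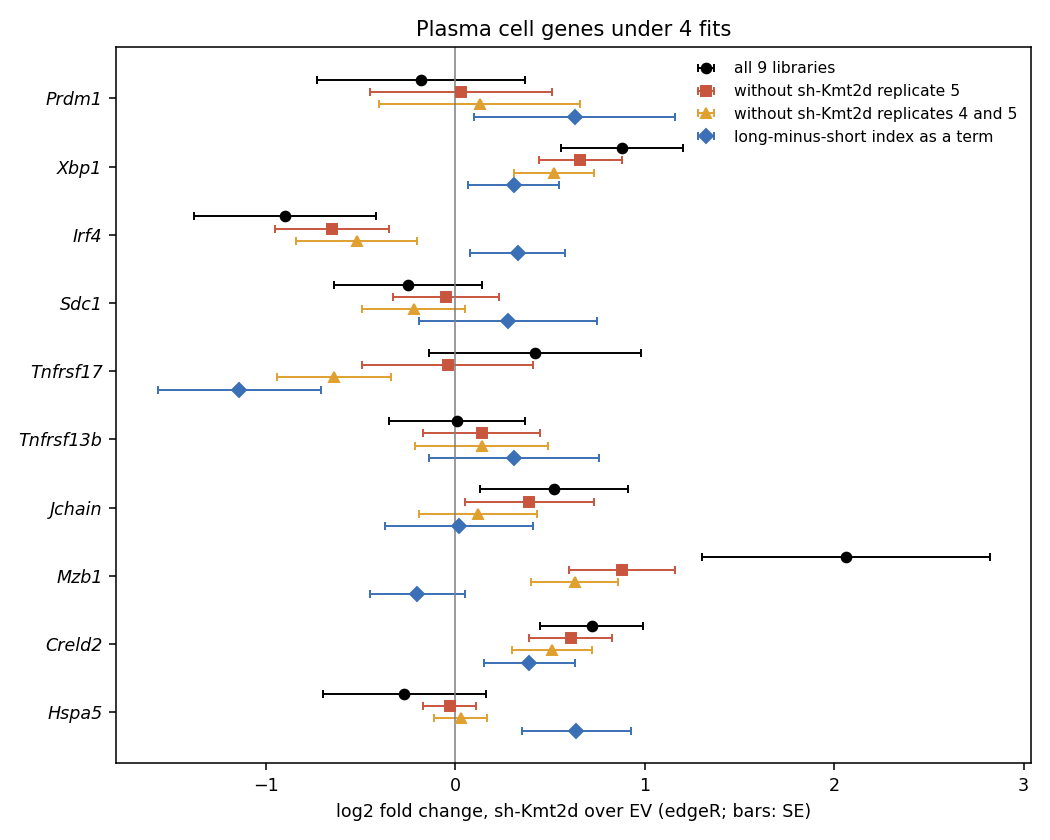
Log2 fold change, sh-Kmt2d relative to EV (horizontal axis, bars are SE) for each plasma cell gene in 4 edgeR fits: all 9 libraries, without sh-Kmt2d replicate 5, without sh-Kmt2d replicates 4 and 5, and the index-adjusted fit. Xbp1, Creld2 and Jchain keep a positive value in all 4 fits, and Mzb1 goes from 2.06 to -0.20.

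Across libraries some members varied together and others apart. The library sh-Kmt2d replicate 5 was the highest library for Xbp1, Tnfrsf17, Mzb1 and Creld2 (4 of 10, against 37% of all tested genes) and the lowest for Prdm1, Irf4, Sdc1 and Hspa5 (4 of 10, against 45.3%). EV replicate 2 was the lowest for Xbp1, Jchain, Mzb1 and Creld2. Its median deviation from the members' means was -0.59 on the log2 scale, the lowest of the 9, and that of sh-Kmt2d replicate 4 was 0.58, the highest. The pair most alike was Xbp1 and Creld2, with a Pearson r of 0.97 and a Spearman rho of 0.95 over the 9 libraries. In an exact permutation test over all orders of the libraries, two-sided, these had p = 4.13e-05 and p = 0.000353 (0.00186 and 0.00794 adjusted over 45 pairs), and without the 2 libraries farthest in Xbp1 the r was 0.97. Xbp1 and Mzb1 had an r of 0.91 (exact permutation adjusted p = 0.00267) and a rho of 0.95 (adjusted p = 0.00794), with an r of 0.91 without the 2 farthest libraries. Jchain had an r of 0.90 with Creld2 and 0.89 with Xbp1 (exact permutation adjusted p = 0.0117 and 0.0157) and a rho of 0.82 and 0.67 (adjusted p = 0.0692 and 0.204), and Mzb1 had an r of 0.81 with Creld2 (adjusted p = 0.0157). Irf4 and Mzb1 ran opposite, with an r of -0.96 (exact permutation adjusted p = 0.00351) and a rho of -0.88 (adjusted p = 0.0346), and an r of -0.84 without the 2 farthest libraries. Of the 45 pairs, 10 had an adjusted p under 0.05 by Pearson r and 5 by Spearman rho. The share among pairs of all tested genes was not computed, so these counts cannot be read as particular to the members. For 82.3% of tested genes sh-Kmt2d replicate 5 was the highest or lowest library. The permutation takes the 9 libraries as exchangeable, although they differ in group and in the index. All pairs share the libraries and so their gradient in the index, whose part was not tested. The pooled r spans both groups.

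**Figure D3:**
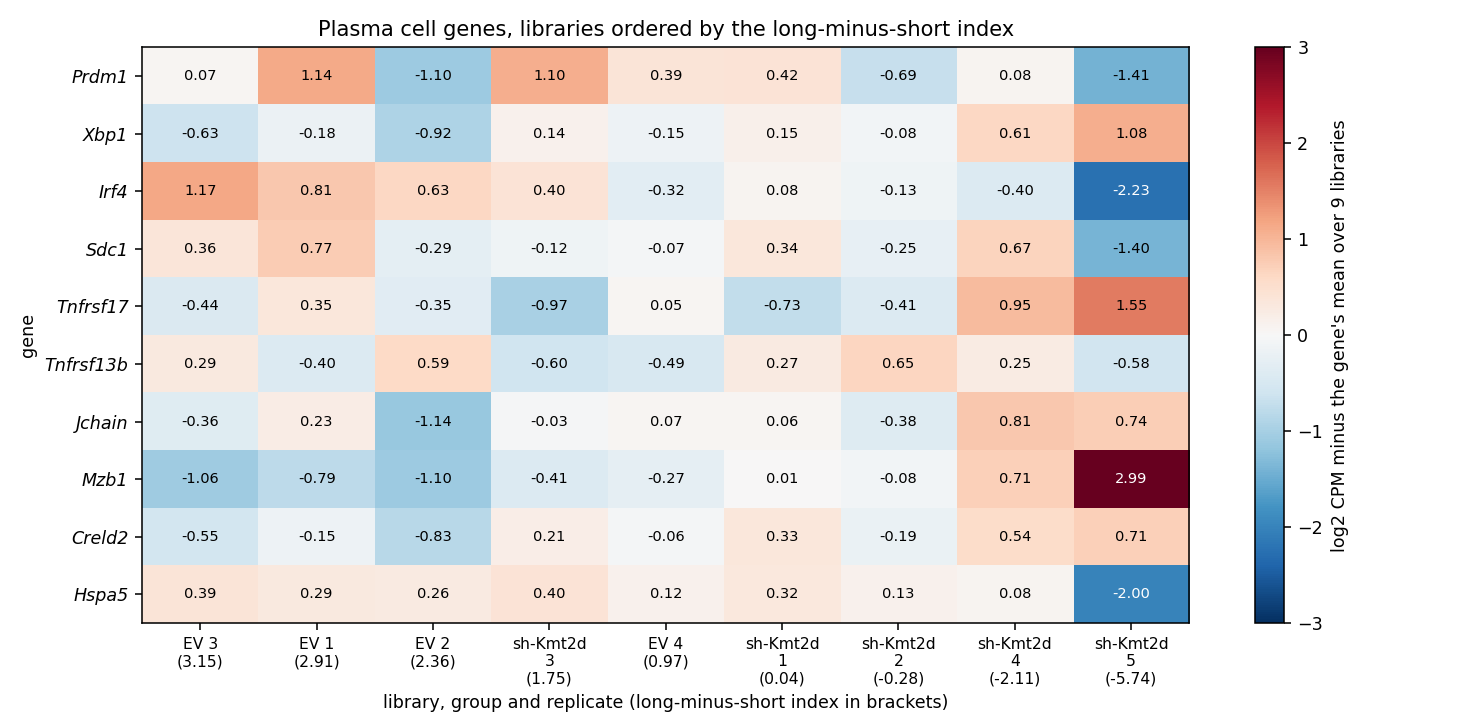
Log2 CPM of each plasma cell gene minus its mean over the 9 libraries (colour and printed value), with the libraries ordered from the highest to the lowest long-minus-short index (in brackets). Mzb1 and Irf4 run in opposite directions along the order, ending at 2.99 and -2.23 in sh-Kmt2d replicate 5, while Prdm1, at 1.14 and -1.10 in neighbouring EV libraries, does not follow it.

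For 2 members the genes with the most similar pattern over the 9 libraries were looked up among 9311 genes with a mean of at least 5 CPM, members left out. For Prdm1 they were Phf19 (Pearson r 0.975, Spearman rho 0.917), Adgrl2 (0.964 and 0.967) and Ankle1 (0.961 and 0.95). For Jchain they were B3gnt9 (0.952 and 0.833), Sntg2 (0.936 and 0.867) and Tmbim1 (0.936 and 0.95). They were picked as the highest of many over 9 libraries, so these values describe the libraries and carry no test.

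The genes around the members were read from lists of the same pathway. In the ER chaperones and folding enzymes 0 of 20 passed in either direction by edgeR, and 13 had positive values, with a median log2 fold change of 0.35. At an unadjusted p under 0.05, 7 of 20 were higher and 1 lower, beside 17.3% and 11.1% of all genes, and DESeq2 called 4 higher and 1 lower, beside 1.83% and 3.22%. Sdf2l1, a partner of BiP, had 44.9, 30.1, 30.7 and 58.7 CPM in EV and 87.7, 61.5, 77.95, 118 and 349 CPM in sh-Kmt2d (1.75 ± 0.55, SE), with no overlap of the groups. Dnajb9, which encodes the BiP cofactor ERdj4 and is a target of spliced Xbp1, had the opposite sign, at 109 ± 38.8 CPM for EV (SD, n = 4) and 47.9 ± 11.6 CPM for sh-Kmt2d (SD, n = 5) (-1.18 ± 0.31, SE). Both had an edgeR adjusted p = 0.167, and DESeq2 called both (adjusted p = 0.0394 and 0.0174). Without sh-Kmt2d replicate 5 they stood at 1.06 ± 0.27 and -1.06 ± 0.27, and, adjusted for the index, at 0.38 ± 0.29 and -0.62 ± 0.28.

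The ERSE found in Creld2 and Hspa5 was also in the windows of 5 of the 15 genes of this list whose windows were searched. They are set out because genes with the same motif had different values in the fit with all 9 libraries. Each is 5′ to 3′ in the direction of the motif, with its fixed letters in capitals, and Hsp90b1 carried a second copy that is not shown.
Creld2, chr15:88819520-88819538, minus strand: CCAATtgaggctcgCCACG
Hspa5, chr2:34772025-34772043, plus strand: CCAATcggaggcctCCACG
Hsp90b1, chr10:86705638-86705656, minus strand: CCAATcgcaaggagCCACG
Calr, chr8:84847075-84847093, plus strand: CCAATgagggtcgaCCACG
Canx, chr11:50325800-50325818, minus strand: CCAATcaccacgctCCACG
Pdia6, chr12:17266491-17266509, plus strand: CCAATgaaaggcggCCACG
Dnajc3, chr14:118937827-118937845, plus strand: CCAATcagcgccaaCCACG

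The log2 fold changes of these 7 genes ran from -0.27 for Hspa5 to 0.72 for Creld2. Calr, the lectin chaperone calreticulin, had 0.51 ± 0.25 (SE), and Pdia6, a disulfide isomerase, 0.53 ± 0.24. DESeq2 called both higher (adjusted p = 0.0475 and 0.0372). Without sh-Kmt2d replicate 5 these 2 stood at 0.61 ± 0.15 and 0.61 ± 0.16, and index-adjusted at 0.63 ± 0.22 and 0.61 ± 0.22. Hsp90b1 (GRP94), Canx (calnexin) and Dnajc3 (a BiP cofactor) had -0.07 ± 0.50, -0.11 ± 0.45 and 0.00 ± 0.30. The last 3 and Hspa5 were within 1 SE of 0. Without sh-Kmt2d replicate 5 they stood at 0.20 ± 0.17, 0.15 ± 0.18, 0.18 ± 0.14 and -0.03 ± 0.14, and in the index-adjusted fit at 0.95 ± 0.39, 0.79 ± 0.32, 0.59 ± 0.18 and 0.64 ± 0.29 (edgeR adjusted p = 0.546 for each). In that last fit all 7 genes had positive values, from 0.39 for Creld2 to 0.95 for Hsp90b1, with Hspa5 above Creld2. So had 17 of the 20 ER chaperones and folding enzymes, and 6971 of all 13349 tested genes. A match describes letters in the window and not a bound site.

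Genes for entry into the ER, export and degradation had 18 positive values of 25 and a median log2 fold change of 0.24, with 0 of 25 passing by edgeR. DESeq2 called 0, against 1.83% of its genes higher and 3.22% lower, and gave no adjusted p for 4 of the 25. At an unadjusted p under 0.05, 9 of 25 were higher and 0 lower, beside 17.3% and 11.1% of all genes. Ssr2, a subunit of the translocon-associated complex, had 60.3 to 87.4 CPM in EV and 94.5 to 545 CPM in sh-Kmt2d (1.62 ± 0.54, SE), and Spcs2, of the signal peptidase, 101 to 141 and 142 to 339 CPM (0.85 ± 0.30). Without sh-Kmt2d replicate 5 they were at 0.89 ± 0.21 and 0.62 ± 0.18, and index-adjusted at 0.08 ± 0.18 and 0.19 ± 0.14.

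The sensors and factors of the unfolded protein response had 7 negative values of 12 and a median of -0.60 (0 of 12 by edgeR; at an unadjusted p under 0.05, 2 higher and 3 lower, beside 17.3% and 11.1% of all genes). The median was -0.26 without sh-Kmt2d replicates 4 and 5. In the index-adjusted fit its sign turned to 0.07, with 8 of 12 positive, beside 6971 of all 13349 tested genes. Ern1, which encodes the sensor IRE1 that splices Xbp1 mRNA, had 31.7 ± 14.9 CPM for EV (SD, n = 4) and 13.1 ± 8.1 CPM for sh-Kmt2d (SD, n = 5) (-1.26 ± 0.47, SE, edgeR adjusted p = 0.167), where Xbp1 itself had 0.88. Ppp1r15a (GADD34), which ends the block of translation and is also an early stress gene, had 378 ± 216 CPM for EV (SD, n = 4) and 53.0 ± 31.8 CPM for sh-Kmt2d (SD, n = 5) (-2.83 ± 0.63, SE, edgeR adjusted p = 0.167; DESeq2 adjusted p = 0.000923). In the index-adjusted fit Ern1 stood at -0.26 ± 0.33 and Ppp1r15a at -1.47 ± 0.51.

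Other genes known from plasma cells had both signs. Of 18 such genes 8 had positive values (48.1% of all genes had), the median log2 fold change was -0.17, 0 passed by edgeR, and at an unadjusted p under 0.05, 0 were higher and 3 lower, beside 17.3% and 11.1% of all genes. DESeq2 called 1 of them lower, Zbtb20 (adjusted p = 0.0483), beside 3.22% of its genes. Zbtb20, a zinc finger factor of long-lived plasma cells, had -2.26 ± 0.77 (SE), and Itga4, an integrin chain that holds cells in the marrow, -1.64 ± 0.61, both with edgeR adjusted p = 0.167. Index-adjusted, they were at -0.90 ± 0.70 and -0.12 ± 0.39.

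The factors that hold cells in the B cell state were split. Of 12 tested, 5 had positive values, the median was -0.19 and 0 of 12 passed by edgeR. By unadjusted p under 0.05, 1 gene was higher and 1 lower, beside 17.3% and 11.1% of all genes. In the index-adjusted fit the sign of the median turned to 0.19, with 7 of 12 positive, beside 6971 of all 13349 tested genes. Bach2, a repressor of Prdm1, had 429 ± 171 CPM for EV (SD, n = 4) and 169 ± 145 CPM for sh-Kmt2d (SD, n = 5), and the log2 fold change came to -1.35 ± 0.60 (SE, edgeR adjusted p = 0.175). Spi1, which encodes PU.1, had 85.7 ± 8.0 and 189 ± 157 CPM (1.14 ± 0.50, edgeR adjusted p = 0.173), and 0.48 ± 0.18 without sh-Kmt2d replicate 5. With the index as a term Bach2 was at -0.16 ± 0.30 and Spi1 at -0.28 ± 0.21.

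The partners of the receptors Tnfrsf17 and Tnfrsf13b had 4 positive values of 9 tested and a median of -0.12, with 0 of 9 passing by edgeR. By unadjusted p under 0.05, 0 were higher and 1 was lower, beside 17.3% and 11.1% of all genes. The sign of the median turned to 0.02 without sh-Kmt2d replicate 5, 0.06 without replicates 4 and 5 and 0.05 in the index-adjusted fit. Traf3, a brake on BAFF receptor signals, had -1.05 ± 0.38 (SE, edgeR adjusted p = 0.167) and Traf6, an adaptor of TACI, -0.85 ± 0.45 (edgeR adjusted p = 0.213). In the index-adjusted fit they were at -0.17 ± 0.18 and 0.23 ± 0.16.

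Among 8 immunoglobulin constant regions with a row, 6 had positive values and the median was 0.86, and 0.08 in the index-adjusted fit (0 of 8 by edgeR in both). At an unadjusted p under 0.05, 2 were higher and 0 lower, beside 17.3% and 11.1% of all genes. Ighm, the chain that Jchain and Mzb1 help to assemble, had 10840, 10530, 10780 and 11610 CPM in EV and 18960, 16230, 13250, 25680 and 16670 CPM in sh-Kmt2d. The groups did not overlap and sh-Kmt2d replicate 5 was not the highest. The log2 fold change of Ighm was 0.73 ± 0.30 (SE, edgeR adjusted p = 0.167, DESeq2 adjusted p = 0.0203), and 0.57 ± 0.25 in the index-adjusted fit. Iglc2, a lambda light chain constant region, had 1.58 ± 0.67 (edgeR adjusted p = 0.169), 0.65 ± 0.32 without sh-Kmt2d replicate 5 and -0.53 ± 0.26 in the index-adjusted fit. Counts per gene do not separate the secreted from the membrane form of Ighm.

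**Figure D4:**
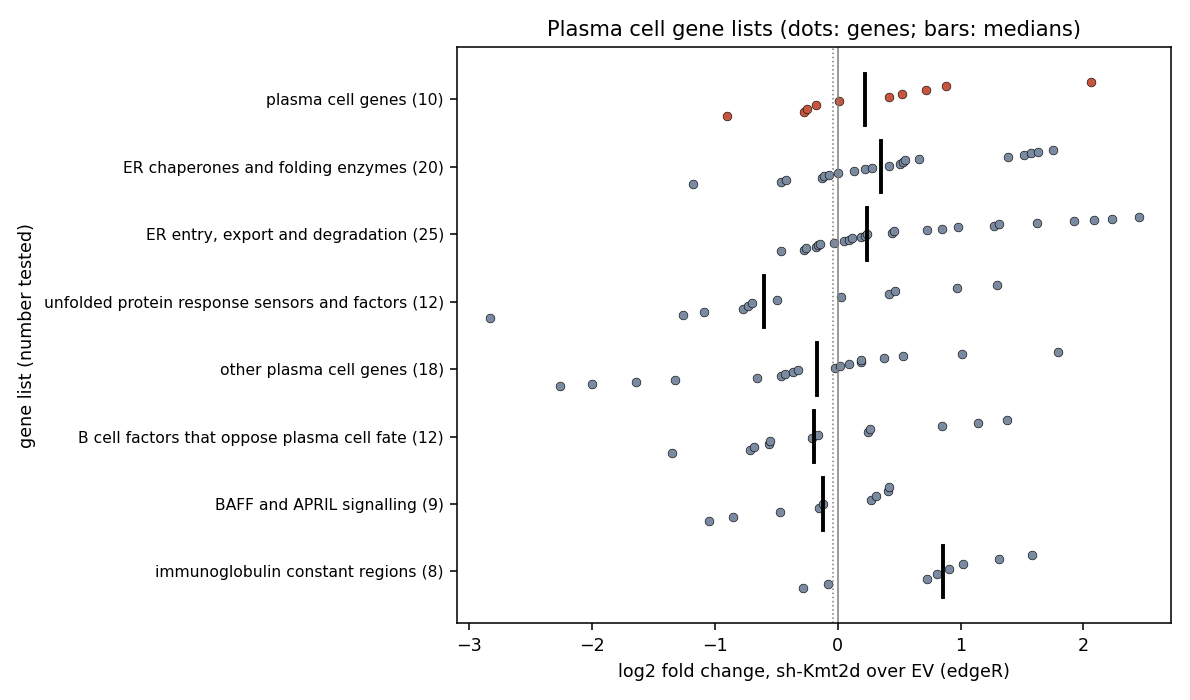
Log2 fold change, sh-Kmt2d relative to EV (horizontal axis) for each tested gene of the plasma cell genes (red) and of 7 related lists (grey), with black bars at the medians and a dotted line at the median of all tested genes. Medians run from -0.60 for the unfolded protein response sensors and factors to 0.86 for the immunoglobulin constant regions.

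Markers of other cells that a B220 preparation could hold were read beside the members. Plasmacytoid dendritic cells carry B220 and are known to express Jchain, Mzb1 and Xbp1 too. Their 8 markers summed to 309 to 472 CPM in EV and 259 to 354 CPM in sh-Kmt2d, mostly Tcf4 (191 CPM on average), which B cells also express, and Bst2 (59.2 CPM). None of the 8 was at 0 in all libraries. The 7 T cell markers summed to 104 to 166 CPM in EV and 167 to 405 CPM in sh-Kmt2d. The groups did not overlap, as for 5.72% of single tested genes with sh-Kmt2d above EV. The sum was highest in sh-Kmt2d replicates 4 and 5, the libraries of title number 110 in which Xbp1, Jchain and Creld2 were high. Lck, which made up most of that sum (151 CPM on average), and Cd3g (26.7 CPM) led this list, and none of its genes was at 0 throughout. The 8 macrophage markers, led by Mpeg1 and Lyz2, summed to 293 to 872 CPM in EV and 252 to 366 CPM in sh-Kmt2d. The 4 platelet markers, led by Itga2b and Ppbp, summed to 5.10 to 6.18 and 1.18 to 2.02 CPM, without overlap, as for 5.12% of single tested genes with sh-Kmt2d below EV. These sums are near the floor, and only 2 of the 4 markers had enough counts to be tested. Sums of the erythroid (led by Hbb-bs and Hbb-bt), neutrophil (S100a9 and S100a8), NK cell (Klrb1c and Klre1) and stromal and endothelial markers (Pecam1 and Cdh5) overlapped between the groups. EV replicate 4, low among EV in Irf4 and Kmt2d, was apart in 2 of them, with an erythroid sum of 829 CPM against 33.7 to 172 in the other libraries and a neutrophil sum of 182 CPM against 2.09 to 45.7. Without it Irf4 stood at -1.11 ± 0.50. The part of these cells in the members' values was not tested, and in bulk RNA fewer cells of a type and less RNA per cell cannot be told apart.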

How the data were processed

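RNA of 4 EV and 5 sh-Kmt2d lymphoma libraries was measured by sequencing. The deposited values are whole-number counts per gene, 1 table per library, without normalization. The submitters' processing notes list HTSeq 0.6.0, CASAVA 1.8.2 and mm9. Aligner, annotation and strand setting: not given in the sources used here. Libraries were made with a TruSeq RNA kit, per the labels' protocols. The 5 summary rows (not unique 36.48% to 73.68%, outside genes 2.69% to 12.93%, ambiguous 0.83% to 1.35% of alignments) stayed out of library sizes and tests. Alignments listed as not unique are in no gene row, so genes with near-identical copies may be undercounted. Symbols for 87.4% of gene rows came from a table of identifiers and a RefSeq table of GRCm38.p6. The 6 peak lists of the series, in mm9 coordinates, were not used here because no mm9 annotation was at hand.

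Groups were compared in edgeR 4.0.16, run under R 4.3.3 (genes kept by filterByExpr, TMM, robust quasi-likelihood F-test, two-sided, Benjamini-Hochberg over 13349 genes, threshold 0.05), which was tested on simulated data. Each SE is the fold change divided by the root of F. Log2 CPM used a prior count of 2. Alternatives were DESeq2 1.42.0, limma 3.58.1 and the settings in the closing section. Precision rests on 4 and 5 libraries. No 2 libraries agreed within sampling noise (chi-square per gene at least 25.2). The named genes are all members, Kmt2d, list members that pass or else the 2 of smallest p, the 2 most abundant markers of other cells and the 3 most similar genes of Prdm1 and Jchain; the genes with an ERSE and the B cell markers are named besides, chosen after their values were seen. The members and lists were chosen with earlier results of these data known. The summed level of the B cell markers is not reported here.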

Additional observations from a re-analysis of the deposited data

Results flagged for a closer look

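In 2 of 20 groups of libraries tested for the 10 genes, 1 library lay apart from the rest of its group by more than Dixon's 95% limit, where chance flags about 1 group in 20. Both concern sh-Kmt2d replicate 5. Mzb1 stood there at 6734 CPM with the next library at 1386 CPM, and the gap was 0.877 of the group's range against a limit of 0.71. Hspa5 stood there at 182.2 CPM with the next library at 772.4 CPM, a gap of 0.758 of the range. That library also had the lowest long-minus-short index (-5.74) and the highest share of alignments that were not unique (73.68%), and the part of either in these values was not tested. It was the highest or lowest of the 9 libraries for 82.3% of the 13349 tested genes. The share of all genes that this rule flags was not computed, so the 2 flags cannot be read as particular to Mzb1 and Hspa5.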

How the results depend on the processing

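Plasma cell genes were called in 1 of 22 alternatives, limma with quality weights, as 3 higher and 1 lower. Over all genes the calls went from 0 higher and 0 lower to 235 and 413 with DESeq2 and 3979 and 4045 with quality weights, to 3 higher in the index-adjusted fit, to 2 higher with the second title number as a replicate block and to 1 lower with total counts as library size. Leaving out 1 library gave 0 to 0 higher and 0 to 1 lower, the 1 without EV replicate 4. Of 220 member values under 22 alternatives, 192 kept direction and side of the threshold, 4 passed it and 24 changed sign. Xbp1 (0.31 to 0.99), Creld2 (0.39 to 0.84) and Jchain (0.02 to 0.68) kept a positive log2 fold change in all 22. In the index-adjusted fit the sign turned for Hspa5 (0.64), Irf4 (0.33), Mzb1 (-0.20), Prdm1 (0.63), Sdc1 (0.28) and Tnfrsf17 (-1.14). Without sh-Kmt2d replicates 4 and 5 it turned for Hspa5 (0.03), Prdm1 (0.13) and Tnfrsf17 (-0.64), with quality weights for Prdm1 (0.21) and Tnfrsf17 (-0.39), and for Tnfrsf13b with limma voom (-0.02) and total counts (-0.13). With 1 library left out the range was -0.57 to 0.23 for Prdm1, -0.17 to 0.23 for Tnfrsf13b and -0.04 to 0.64 for Tnfrsf17. The cause was not tested. The 3 members higher at an unadjusted p under 0.05 became 0 without EV replicate 2 or 3, in the index-adjusted fit or with the first title number as a random block (limma, correlation 0.439), 2 without sh-Kmt2d replicate 4, and 1 with total counts, which moved the median of all genes by -0.16 and that of the members to -0.04.

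The groups share second title numbers, but of the 5 pairs with the same number only 2 had deviations correlated above 0.1 (range -0.304 to 0.406), and 2 of 4 EV libraries correlated best with their own number, so that the number was not taken as a pairing. With it as a replicate block Prdm1 was at 0.37, Tnfrsf13b at -0.08 and Tnfrsf17 at -0.22, and no member was called. Among the RNA libraries sh-Kmt2d replicate 5 alone had second number 3. The group difference in that fit thus drew nothing from this library, much as in the fit without it.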
